A study of Mus musculus with 12 samples.

Results

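The genes described here are 10 markers of endothelium, the cell layer that lines blood vessels: Pecam1, Cdh5, Emcn, Tie1, Tek, Esam, Erg, Egfl7, Sox17 and Flt1. They were taken by name from 22180 genes measured on 12 arrays of cultured mouse aortic smooth muscle cells, as a measure of cells other than smooth muscle. Each of the 10 had 1 probe set with its own symbol in the platform annotation. The cultures were primary, grown from C57BL/6J aortas (a standard inbred mouse strain) and used at passage 3 to 4, and the medium was DMEM plus 10% FCS (calf serum). In 1 group of 6 arrays the medium held 4.5 g/l glucose (25 mM), and in the other group of 6 it held 0.3 g/l (1.7 mM). The culture time is 14 days in the series text and 1 week in the sample labels. Replicates are numbered 1 to 6 in each group, and nothing says whether they came from separate cultures or animals, so the p-values here rest on the variation among these arrays alone, and that variation may be technical. No sorting step is described for the cells, and an osmotic control was not analysed here.

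Endothelial cells hold together through VE-cadherin (Cdh5), PECAM-1 (Pecam1) and the adhesion molecule Esam, and carry the sialomucin endomucin (Emcn) on their surface. They sense angiopoietins through the receptor kinase Tek and its relative Tie1, and vascular endothelial growth factors through Flt1 and Kdr. The ETS factor Erg and the SRY-box factor Sox17 maintain their gene programme, and they secrete Egfl7. In a normal aorta endothelium forms the inner lining, and the medial layer from which smooth muscle cells are grown lies beneath it. Whether each of these genes, Emcn among them, marks the endothelium of the aorta in particular was not tested.

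RefSeq promoter windows (GRCm38.p6, 250 bases before to 50 after an annotated start) were at hand for 6 of the 10 genes, in 10 windows, and 4 are shown. Emcn had the highest probe set signal of the 10, and Flt1 had the largest positive difference between the glucose levels. Egfl7 and Erg were added after the windows had been searched, each with a window that held matches. The other Erg windows and the Tie1 window, not shown, held 0 matches. The ETS-type words CAGGAAG plus CCGGAAG were searched on both strands. So were the SOX-type words ACAATGG plus ACAAAGG and the GATA-type words AGATAA plus TGATAA. Capitals mark every match to any of the 6 words. None of the marked matches overlaps another.
Emcn (chr3:137340828-137341127, + strand): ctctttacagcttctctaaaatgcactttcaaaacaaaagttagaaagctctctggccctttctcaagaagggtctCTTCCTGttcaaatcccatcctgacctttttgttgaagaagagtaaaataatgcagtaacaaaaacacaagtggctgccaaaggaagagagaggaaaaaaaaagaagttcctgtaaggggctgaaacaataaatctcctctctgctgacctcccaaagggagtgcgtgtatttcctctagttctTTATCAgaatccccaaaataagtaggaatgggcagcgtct
Egfl7 (chr2:26583615-26583914, + strand): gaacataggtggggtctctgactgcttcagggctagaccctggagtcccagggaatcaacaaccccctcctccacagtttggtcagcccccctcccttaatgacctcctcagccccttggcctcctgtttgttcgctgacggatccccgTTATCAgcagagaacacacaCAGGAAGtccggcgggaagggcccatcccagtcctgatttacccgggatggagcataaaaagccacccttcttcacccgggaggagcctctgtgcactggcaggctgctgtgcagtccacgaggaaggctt
Erg (chr16:95459299-95459598, - strand): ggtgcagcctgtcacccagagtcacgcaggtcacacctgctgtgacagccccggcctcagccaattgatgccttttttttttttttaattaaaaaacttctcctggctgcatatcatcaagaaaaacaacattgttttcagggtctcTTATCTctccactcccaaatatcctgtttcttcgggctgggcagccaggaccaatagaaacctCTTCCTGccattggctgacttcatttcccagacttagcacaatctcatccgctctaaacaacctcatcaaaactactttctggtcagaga
Flt1 (chr5:147725962-147726261, - strand): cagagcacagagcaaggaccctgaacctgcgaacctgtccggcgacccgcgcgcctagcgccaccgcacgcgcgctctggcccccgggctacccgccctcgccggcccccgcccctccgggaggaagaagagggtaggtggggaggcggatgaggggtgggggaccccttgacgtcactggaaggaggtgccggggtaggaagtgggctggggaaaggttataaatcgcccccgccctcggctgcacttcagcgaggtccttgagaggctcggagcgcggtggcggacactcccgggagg
CAGGAAG stood in 4 of the 10 windows, those of Emcn, Erg (1 of its 3) and Egfl7 (2 of its 3), and in 13.3% of all 32851 windows of the table. In the windows shown it began 174 bases before the start of Emcn, 81 before that of Egfl7 and 40 before that of Erg, counting from the first base of the match as printed. TGATAA stood in windows of Emcn and Egfl7 (9.05% of all windows) and AGATAA in windows of Tek and Erg (11.2%). ACAAAGG stood in 1 of the 10 windows, of Egfl7 (5.88% of all windows), and CCGGAAG (8.86%) and ACAATGG (3.66%) in 0 of them. The Flt1 window held none of the 6 words. A match is a string of letters and not a measured binding site.

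All values are log2 values after robust multi-array averaging (RMA), in which 1 unit is a doubling. Array medians were 4.92 to 5.05. The smooth muscle label was checked with Acta2, smooth muscle alpha actin, at 13.83 ± 0.06 in 4.5 g/l and 13.15 ± 0.24 in 0.3 g/l (SD, n = 6 each), and with Tagln at 13.13 ± 0.08 in 4.5 g/l and 12.25 ± 0.31 in 0.3 g/l. Myh11, the smooth muscle myosin, had 10.29 to 10.87 in 4.5 g/l. In 0.3 g/l replicate 4 stood apart from its group, with 8.80 for Myh11 where the other 5 arrays had 7.03 to 7.25. The 4.5 g/l arrays themselves parted into replicates 1 to 3 and 4 to 6. The results below are therefore given with all 12 arrays, without 0.3 g/l replicate 4, and within each range of replicate numbers. These subsets were picked after the values had been seen, so their p-values are descriptive. The labels do not say what the number ranges stand for.

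With all 12 arrays, 1 of the 10 endothelial marker genes differed between the glucose levels. Each of the 10 genes had a mean over 12 arrays above 4.20, the 25th percentile of gene means, and all 10 were kept under the filter on low values. As 17 of 20 genes of unrelated tissues also lay above 4.20, this does not show that RNA of each gene was detected. Emcn fell to 11.28 ± 0.29 in 4.5 g/l, against 11.71 ± 0.12 in 0.3 g/l (SD, n = 6 each). Its log2 difference of -0.43 ± 0.12 (SE; limma adjusted p = 0.0236) is 1.35-fold lower in 4.5 g/l. The other 9 genes did not pass the adjusted p of 0.05. Over all genes 15.5% passed, 7.01% higher and 8.52% lower in 4.5 g/l, so 1 of 10 is not above the background share. At an unadjusted p under 0.05 there were 3 genes, Emcn, Cdh5 and Tek, all lower in 4.5 g/l (27.6% of all genes), and an exact rank-sum test adjusted over all genes passed 0 of the 10 (8.99% of all genes). The median log2 difference of the 10 genes was -0.26, beside -0.01 over all genes. In no gene of the 10 were the 2 groups apart without overlap, as they were in 6.4% of all genes. In these bulk samples the number of cells that transcribe these genes and their RNA per cell cannot be told apart. Which cells in the cultures transcribe them was not tested.

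**Figure D1:**
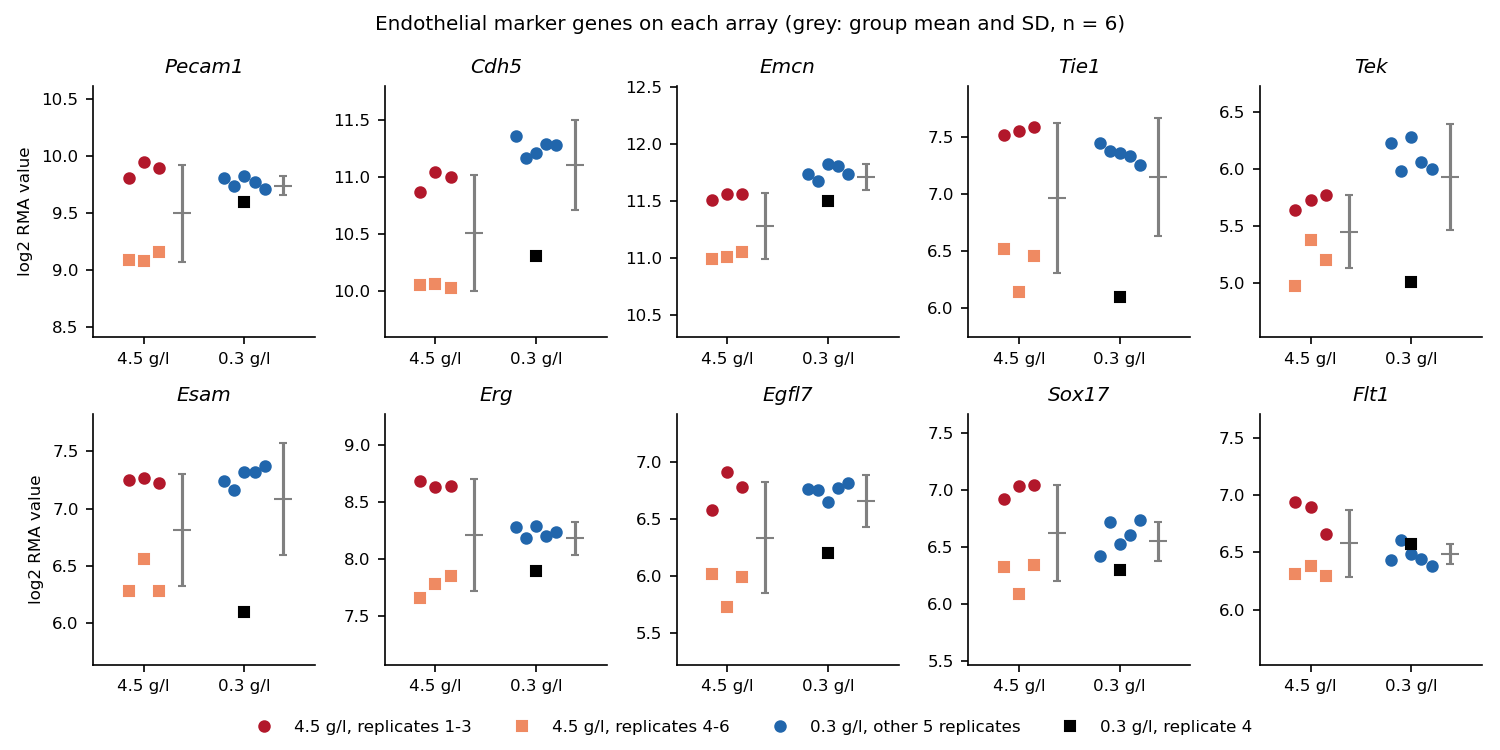
Log2 RMA values of the 10 endothelial marker genes (vertical axes, each spanning the same log2 width) on the 6 arrays of 4.5 g/l (left) and the 6 of 0.3 g/l (right), with group means and SD in grey. Squares mark replicates 4 to 6 of 4.5 g/l and the single replicate 4 of 0.3 g/l; in every panel 4.5 g/l replicates 4 to 6 lie below replicates 1 to 3, and the low square of 0.3 g/l is seen for Tie1, at 6.10, but not for Flt1, at 6.57.

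Of the junction genes, Cdh5, which encodes the cadherin of endothelial junctions, had the widest gap between the glucose levels. Its values in 4.5 g/l were 10.87, 11.04 and 11.00 in replicates 1 to 3 and 10.05, 10.06 and 10.03 in replicates 4 to 6. Values in 0.3 g/l were 11.36, 11.16, 11.21, 10.31, 11.29 and 11.28 in replicates 1 to 6. Each 4.5 g/l array thus lay below 5 of the 0.3 g/l arrays, and replicate 4 of 0.3 g/l lay between the 2 sets of 4.5 g/l arrays. Over 12 arrays the log2 difference of -0.59 ± 0.23 (SE) missed the threshold (adjusted p = 0.101, limma). Without 0.3 g/l replicate 4 it was -0.75 ± 0.20 and passed (limma adjusted p = 0.0153).

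Emcn encodes endomucin, a mucin-like glycoprotein of the endothelial surface. It had 11.51, 11.56 and 11.56 in 4.5 g/l replicates 1 to 3 and 10.99, 11.01 and 11.05 in replicates 4 to 6. The 0.3 g/l arrays had 11.73, 11.67, 11.82, 11.50, 11.80 and 11.73. As for Cdh5, all 4.5 g/l arrays were below 0.3 g/l with replicate 4 set aside, and the 2 groups met only through that array. The fall of Emcn no longer passed when any one of 4.5 g/l replicates 4, 5 or 6 or one of replicates 1, 3 or 5 of 0.3 g/l was left out, with limma adjusted p between 0.0501 and 0.0562. Leaving out 0.3 g/l replicate 4 kept the call (-0.47, adjusted p = 0.0114 by limma).

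Pecam1, an immunoglobulin-type adhesion molecule of endothelium and blood cells, had 4.5 g/l arrays both above and below 0.3 g/l. It measured 9.80, 9.94 and 9.89 in 4.5 g/l replicates 1 to 3 and 9.09, 9.08 and 9.16 in replicates 4 to 6, against 9.80, 9.73, 9.82, 9.59, 9.77 and 9.71 in 0.3 g/l. The first 3 arrays of 4.5 g/l were at or above most of 0.3 g/l and the last 3 were below every 0.3 g/l array. The difference over 12 arrays was -0.24 ± 0.16 (limma adjusted p = 0.358).

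Esam, another adhesion molecule of endothelial junctions, had 7.25, 7.27 and 7.22 in 4.5 g/l replicates 1 to 3 and 6.28, 6.56 and 6.28 in replicates 4 to 6. Esam in 0.3 g/l had 7.24, 7.16, 7.32, 6.09, 7.32 and 7.37. Here replicate 4 of 0.3 g/l was the lowest of the 12 arrays, while the first 3 arrays of 4.5 g/l lay inside the range of the other 0.3 g/l arrays. The difference of -0.27 ± 0.24 did not pass (limma adjusted p = 0.544).

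The angiopoietin receptor Tek (TIE2) was lower in 4.5 g/l than in 5 of the 0.3 g/l arrays, while its relative Tie1 was not lower in 4.5 g/l replicates 1 to 3. Tek had 5.64, 5.73 and 5.77 in 4.5 g/l replicates 1 to 3 and 4.97, 5.38 and 5.20 in replicates 4 to 6, against 6.23, 5.98, 6.28, 5.01, 6.06 and 6.00 in 0.3 g/l. Its log2 difference was -0.48 ± 0.20 with 12 arrays (limma adjusted p = 0.138). Without 0.3 g/l replicate 4 it was -0.66 ± 0.14 and passed (limma adjusted p = 0.00308), a level 1.58-fold lower in 4.5 g/l. Tie1, a receptor kinase that modulates Tek signalling, had 7.52, 7.55 and 7.59 in 4.5 g/l replicates 1 to 3 and 6.52, 6.14 and 6.46 in replicates 4 to 6. Its 0.3 g/l values were 7.45, 7.38, 7.36, 6.10, 7.33 and 7.25. Both receptors were thus low in 0.3 g/l replicate 4, and only Tie1 was above 5 of the 0.3 g/l arrays in 4.5 g/l replicates 1 to 3. The Tie1 difference of -0.18 ± 0.29 had the widest SE of the 10 genes (limma adjusted p = 0.764).

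Flt1, which encodes VEGF receptor 1, had the smallest spread between arrays. It measured 6.94, 6.90 and 6.66 in 4.5 g/l replicates 1 to 3 and 6.31, 6.38 and 6.29 in replicates 4 to 6, against 6.43, 6.61, 6.49, 6.57, 6.44 and 6.38 in 0.3 g/l. It was the 1 gene of the 10 that was not lowest of its group in 0.3 g/l replicate 4. The difference was 0.09 ± 0.12 (limma adjusted p = 0.677).

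The transcription factors Erg and Sox17 stood above 0.3 g/l in 4.5 g/l replicates 1 to 3 and below most of it in replicates 4 to 6. Erg had 8.68, 8.63 and 8.64 in the first 3 and 7.66, 7.78 and 7.85 in the last 3 arrays of 4.5 g/l, against 8.28, 8.18, 8.29, 7.89, 8.20 and 8.23 in 0.3 g/l. All 6 arrays of 0.3 g/l lay between the 2 sets of 4.5 g/l arrays, so that the means of the groups were alike (difference 0.03 ± 0.18, limma adjusted p = 0.951). Sox17 had 6.92, 7.03 and 7.04 in 4.5 g/l replicates 1 to 3 and 6.32, 6.09 and 6.34 in replicates 4 to 6. Its 0.3 g/l values were 6.42, 6.72, 6.52, 6.30, 6.60 and 6.73 (difference 0.07 ± 0.16, limma adjusted p = 0.839). As for Erg, the first 3 arrays of 4.5 g/l were above all of 0.3 g/l. The sign of the 12-array difference turned for both genes when single arrays were left out, so neither has a direction over all arrays.

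Egfl7, a secreted protein of the endothelial matrix, had 6.58, 6.91 and 6.78 in 4.5 g/l replicates 1 to 3 and 6.02, 5.73 and 5.99 in replicates 4 to 6. Egfl7 values in 0.3 g/l were 6.76, 6.75, 6.65, 6.20, 6.77 and 6.81. Only 4.5 g/l replicates 4 to 6 lay below the whole of 0.3 g/l. The difference was -0.32 ± 0.19 (limma adjusted p = 0.312).

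Without 0.3 g/l replicate 4, 3 of the 10 genes fell in 4.5 g/l (Cdh5, Emcn and Tek) and 0 rose in limma. Of all genes 23.9% passed there, 10.3% higher and 13.6% lower. With the number ranges as a block, Emcn and Cdh5 fell (limma adjusted p = 0.0262 for Cdh5), where 17.5% of all genes passed, 7.94% higher and 9.58% lower.

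The difference between the glucose levels depended on which replicate numbers were compared. Within replicates 1 to 3, with 3 arrays a group, Erg rose by 0.40 ± 0.07 (limma adjusted p = 0.0109) and Sox17 by 0.44 ± 0.10 (limma adjusted p = 0.0254) in 4.5 g/l. Tek fell by 0.45 ± 0.10 (-0.45, limma adjusted p = 0.0251). The other 7 genes did not pass, with differences from -0.27 (Cdh5) to 0.33 (Flt1). Among all genes 13.1% passed in this comparison, 5.92% higher and 7.16% lower. Within replicates 4 to 6 with 0.3 g/l replicate 4 left out, 3 arrays against 2, 8 of the 10 genes fell and 0 rose, where 8.94% of all genes fell and 6.55% rose. The falls ran from -0.45 ± 0.09 for Erg (limma adjusted p = 0.0227) to -1.24 ± 0.07 for Cdh5 (limma adjusted p = 0.000469), and the 2 that did not pass were Sox17 (-0.42, limma adjusted p = 0.0542) and Flt1 (-0.08, limma adjusted p = 0.544). With 0.3 g/l replicate 4 kept in, 0 of the 10 passed within replicates 4 to 6 in limma, and 0.135% of all genes did, 0.0947% higher and 0.0406% lower. At an unadjusted p under 0.05 there were 5 of the 10 in limma, all lower in 4.5 g/l, and 16.7% of all genes in either direction. Erg thus rose in the one range and fell in the other, and that difference between ranges was not tested. The ranges and the array left out were picked with these values known, so these p-values give no independent support. Leaving out 0.3 g/l replicate 4, the lowest of its group for 9 of the 10 genes, raised the 0.3 g/l mean of those 9.

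**Figure D2:**
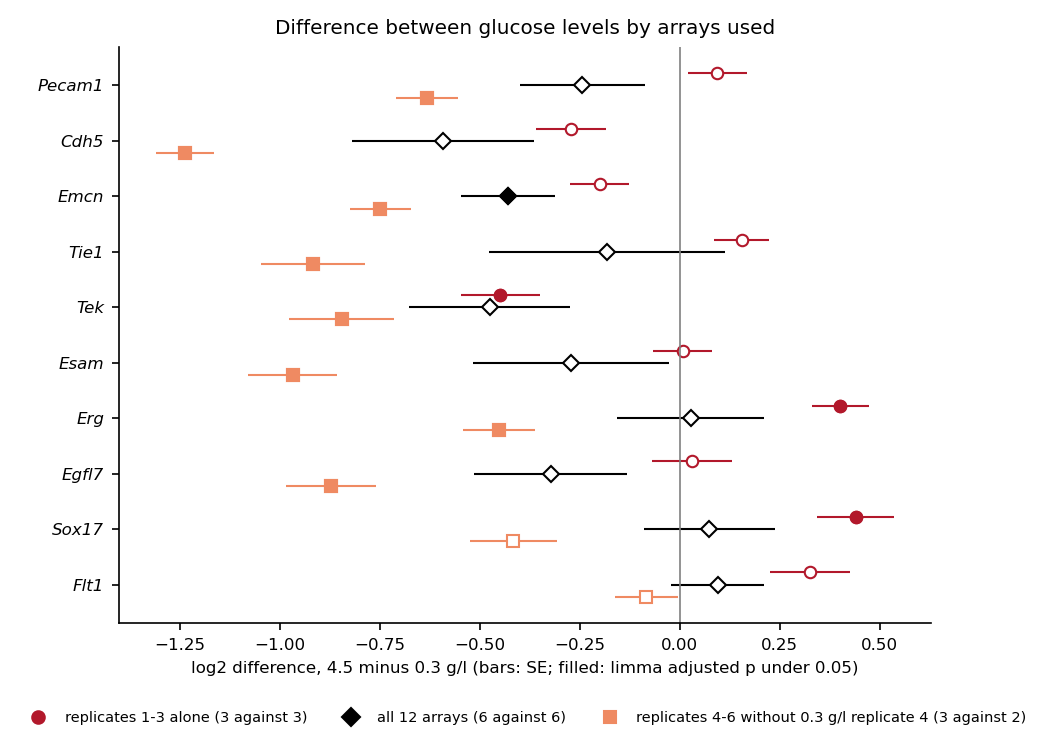
Log2 difference, 4.5 minus 0.3 g/l (horizontal axis; bars are SE), for each of the 10 genes in replicates 1 to 3 alone, in all 12 arrays, and in replicates 4 to 6 without 0.3 g/l replicate 4; filled symbols passed a limma adjusted p of 0.05. Tek, Emcn and Cdh5 lie left of 0 in all 3 sets, with Cdh5 between -0.27 and -1.24, and Erg lies at 0.40 and at -0.45 in the 2 subsets.

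Within 4.5 g/l all 10 genes were lower in replicates 4 to 6 than in replicates 1 to 3, with no overlap between the 2 sets of 3 arrays. The same held for 15.3% of all genes. Because this split was known when the genes were chosen, it is a description and was not tested. The log2 differences ran from -0.51 for Flt1, 1.42-fold lower in replicates 4 to 6, to -1.18 for Tie1, 2.27-fold lower, with a median of -0.80 beside -0.02 over all genes. Cdh5 differed by -0.93, Erg by -0.89, Esam by -0.87, Egfl7 by -0.84, Pecam1 by -0.77, Sox17 by -0.75, and Emcn and Tek by -0.53 each. In all 10 genes replicates 4 to 6 also lay below every array of 0.3 g/l other than replicate 4, as did 16.7% of all genes. For Flt1 the nearest arrays of the 2 groups were level at the printed digits, at 6.38 each. The mean of the 10 genes was 7.42, 7.42 and 7.47 in 4.5 g/l replicates 4 to 6, against 8.17, 8.26 and 8.21 in replicates 1 to 3.

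Replicate 4 of 0.3 g/l was the lowest array of its group for 9 of the 10 genes, and over all genes that was so for 26.7%. Both this and the split of 4.5 g/l were seen in 9 of the 10 genes, against 6.53% of all genes. In 6 of the 10 this array also lay below the next by more than Dixon's critical share of the group's range, as in 6.92% of all genes. The size differed between the genes. Tie1 lay 2.39-fold below the mean of the other 5 arrays, Esam 2.28-fold, Tek 2.15-fold and Cdh5 1.93-fold. Egfl7 lay 1.46-fold below that mean, Erg 1.27-fold, Sox17 1.23-fold, Emcn 1.19-fold and Pecam1 1.13-fold, and Flt1 lay 0.10 above it on the log2 scale. The mean of the 10 genes was 7.56 on this array and 8.13 to 8.18 on the other 5 of 0.3 g/l. Tek was 1.44-fold lower across the split of 4.5 g/l and 2.15-fold lower on 0.3 g/l replicate 4. For Pecam1 the split of 4.5 g/l was 1.70-fold and the gap of 0.3 g/l replicate 4 was 1.13-fold. The order of the genes by size thus differed between these within-group gaps, of which the second rests on 1 array.

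**Figure D3:**
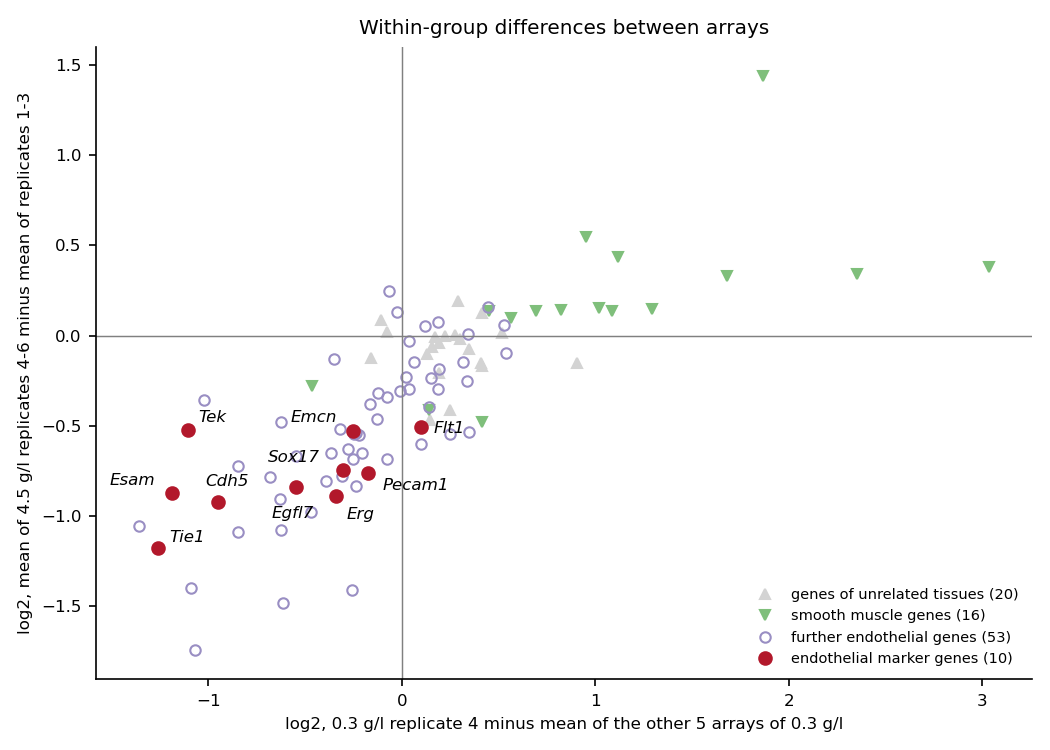
Log2 difference between 4.5 g/l replicates 4 to 6 and 1 to 3 (vertical axis) against that between 0.3 g/l replicate 4 and the other 5 arrays of its group (horizontal axis), for the 10 endothelial marker genes, 53 further endothelial genes, 16 smooth muscle genes and 20 genes of unrelated tissues. The 10 genes lie between -0.51 and -1.18 on the vertical axis and are spread from -1.26 (Tie1) to 0.10 (Flt1) on the horizontal one.

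Of the arrays outside these 4, 4.5 g/l replicates 1 to 3 and the 5 other arrays of 0.3 g/l had close means over the 10 genes (8.17 to 8.26 in 4.5 g/l and 8.13 to 8.18 in 0.3 g/l) and differed gene by gene. In Tie1, Erg, Sox17 and Flt1 all 3 arrays of 4.5 g/l were above all 5 of 0.3 g/l (12.2% of all genes). In Cdh5, Emcn and Tek all 3 were below all 5 (14.7% of all genes). Pecam1, Esam and Egfl7 overlapped. Higher and lower members thus offset each other in the mean. The summed linear signal of the 10 genes was 6805 to 7273 in 4.5 g/l replicates 1 to 3, 4265 to 4387 in 4.5 g/l replicates 4 to 6, 7358 to 7920 in 5 arrays of 0.3 g/l and 5584 in 0.3 g/l replicate 4. This sum is led by Emcn, Cdh5 and Pecam1, whose probe sets had the strongest signal.

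Of 53 measured genes on a further list of 54 known from endothelium, 1 rose and 7 fell in 4.5 g/l with 12 arrays (limma, beside 7.01% and 8.52% of all genes), and 45 did not pass. Their median log2 difference was -0.11. Sele, the adhesion receptor E-selectin of activated endothelium, rose 1.98-fold. It had 7.09, 6.82, 6.85, 6.21, 5.88 and 6.18 in 4.5 g/l, against 5.51, 5.66, 5.81, 5.33, 5.52 and 5.31 in 0.3 g/l, with no overlap (limma adjusted p = 0.00302). Selp, its relative P-selectin, fell (-0.71 ± 0.14, limma adjusted p = 0.00433). Selp ran from 8.40 to 9.07 in 4.5 g/l and from 8.94 to 9.65 in 0.3 g/l, where the lowest was replicate 4. The 2 selectins thus differed in direction.

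The widest fall was that of Cd34, a sialomucin of endothelial and also of adventitial and blood progenitor cells. It ran from 8.34 to 9.05 in 4.5 g/l and from 9.52 to 9.81 in 0.3 g/l, without overlap (-1.02 ± 0.12, limma adjusted p = 0.000195). Apln, the peptide ligand apelin, also fell without overlap, with 5.82 to 6.78 in 4.5 g/l and 6.86 to 7.27 in 0.3 g/l (-0.75 ± 0.16, limma adjusted p = 0.00547). Calcrl, the receptor for adrenomedullin, fell by 0.81 ± 0.18 (-0.81, limma adjusted p = 0.00767), and Ramp2, its partner protein, by 0.30 ± 0.09 (-0.30, limma adjusted p = 0.0297). Myct1 (-0.30, limma adjusted p = 0.0211) and the kinase Bmx (-0.36, limma adjusted p = 0.0321) also fell. Ramp2 and Bmx were named after their values were seen. Cd34, Selp, Calcrl and Apln also fell, and Sele also rose, within replicates 1 to 3 and within replicates 4 to 6 without 0.3 g/l replicate 4. Among these were -0.77 and -1.35 for Cd34, and 1.26 and 0.68 for Sele. Ramp2 (limma adjusted p = 0.232 and 0.113) and Bmx (limma adjusted p = 0.0803 and 0.251) passed in neither subset. Myct1 passed only in the second (limma adjusted p = 0.212 and 0.0102). All these genes were picked from a fit that held the same arrays, so the subsets give no independent support.

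**Figure D4:**
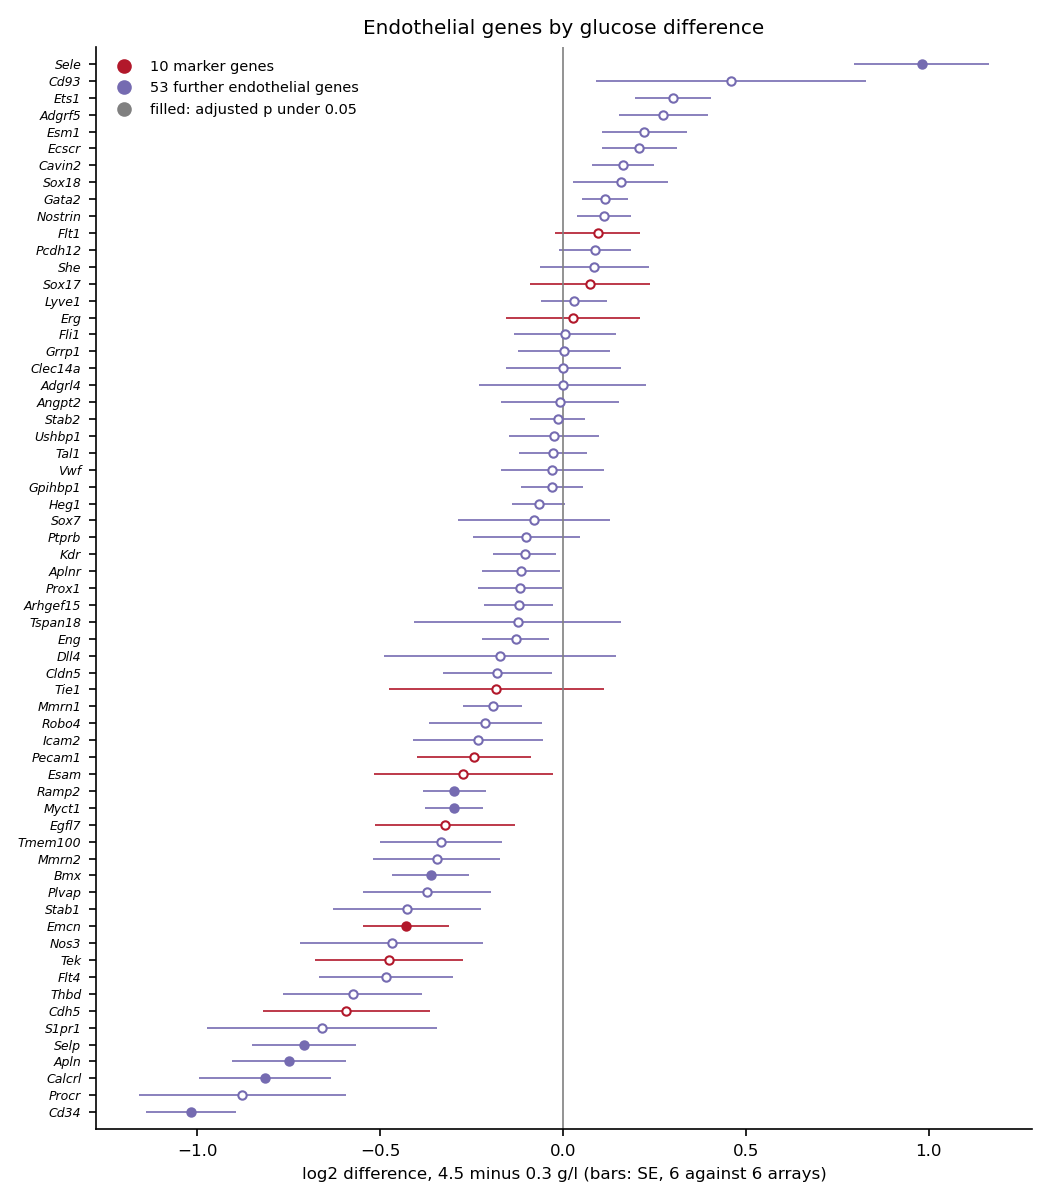
Log2 difference, 4.5 minus 0.3 g/l, with SE (horizontal axis) for the 10 marker genes in red and 53 further endothelial genes in violet, ordered by size; filled circles passed a limma adjusted p of 0.05. Sele lies at 0.98 and Cd34 at -1.02, and Emcn is the filled circle among the 10.

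Best known among the further genes, Kdr (VEGF receptor 2), Vwf (von Willebrand factor), Cldn5 (claudin 5 of tight junctions), Nos3 (endothelial nitric oxide synthase), Eng (endoglin) and Icam2 did not pass with 12 arrays. Kdr ran from 5.13 to 5.67 in 4.5 g/l and from 5.39 to 5.60 in 0.3 g/l, and Cldn5 from 4.64 to 5.57 in 4.5 g/l and from 5.00 to 5.55 in 0.3 g/l. Both were thus near the array median on every array, while Eng had 10.76 to 11.19 in 4.5 g/l and 10.97 to 11.21 in 0.3 g/l. As probes differ in how strongly they bind, such values do not rank the genes by amount. Nos3 lay at 5.67 to 6.00 for 4.5 g/l replicates 4 to 6 and at 6.74 to 7.03 for replicates 1 to 3. Nos3 in 0.3 g/l was 6.10 on replicate 4 and 6.83 to 7.04 on the other 5 arrays. Of the 53 genes, 38 lay lower in all of 4.5 g/l replicates 4 to 6 than in all of replicates 1 to 3, beside 10 of the 10 markers and 15.3% of all genes. In 0.3 g/l replicate 4, 27 of the 53 were lowest of their group (26.7% of all genes). The median split of 4.5 g/l was -0.52 for the 53 genes and -0.80 for the 10 markers, and the median gap of 0.3 g/l replicate 4 was -0.16 for the 53 and -0.44 for the 10.

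Several lists for other cells were also lower in 4.5 g/l replicates 4 to 6 than in replicates 1 to 3, by smaller steps in the list mean. Fibroblast and adventitial genes had means of 5.68 to 5.74 in replicates 4 to 6 and 5.81 to 5.92 in replicates 1 to 3, and macrophage and leukocyte genes 4.74 to 4.84 and 4.85 to 4.92. Pericyte genes had 8.25 to 8.28 in replicates 4 to 6 and 8.30 to 8.35 in replicates 1 to 3, Schwann and neural genes 6.24 to 6.35 and 6.41 to 6.51, and adipocyte genes 4.60 to 4.74 and 4.84 to 5.02. These 5 lists did not overlap between the sets, while epithelial and mesothelial genes and genes of unrelated tissues did. The overlap of the unrelated genes was narrow, at 4.87 to 4.95 in replicates 4 to 6 and 4.94 to 5.00 in replicates 1 to 3. A step as small as that of the pericyte genes was thus also seen in genes of unrelated tissues. Between the glucose levels, the mean of 16 macrophage and leukocyte genes stayed between 4.74 and 4.92 in 4.5 g/l and between 4.79 and 4.88 in 0.3 g/l. These levels are like those of 20 genes of unrelated tissues, at 4.87 to 5.00 in 4.5 g/l and 4.79 to 5.13 in 0.3 g/l. Cd68 was the brightest of the 16 and the only 1 with a mean above 7, at 7.32 in 4.5 g/l and 7.33 in 0.3 g/l. The leukocyte gene Ptprc of the same list had 3.14 to 3.59 over the 12 arrays. Which cells the Cd68 signal came from was not tested. Cd68 too was low on 0.3 g/l replicate 4, at 6.24 against 7.35 to 7.76 on the other 5 arrays. Of 13 measured fibroblast and adventitial genes, Mfap5 (1.40-fold) and Col14a1 (1.29-fold) rose. Their list mean was 5.68 to 5.92 in 4.5 g/l and 5.66 to 5.79 in 0.3 g/l. Of 9 pericyte genes, 4 rose and 1 fell, with Mcam 3.67-fold higher, Rgs5 1.53-fold higher and Pdgfrb 1.33-fold lower in 4.5 g/l. Mcam is also found in endothelium and smooth muscle. Of 6 Schwann and neural genes Tubb3 fell (-0.32, limma adjusted p = 0.00565), of 6 adipocyte genes 0 passed in limma and 0 had an unadjusted p under 0.05, and of 8 epithelial and mesothelial genes Krt18 rose (1.03) and Krt14 fell (-0.69). Of 16 smooth muscle genes, 12 rose (7.01% of all genes), and within each group their mean was higher where that of the 10 markers was lower. Their mean lay at 9.95 to 10.00 for 4.5 g/l replicates 4 to 6, against 9.73 to 9.83 for replicates 1 to 3. Not every gene went with the mean: 3 of the 16 (Des, Sncg and Notch3) were lower in all of replicates 4 to 6 than in all of replicates 1 to 3. Smooth muscle genes in 0.3 g/l had a mean of 9.30 on replicate 4 and 8.18 to 8.30 on the other 5 arrays. The part of either list in the values of the other was not tested.

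**Figure D5:**
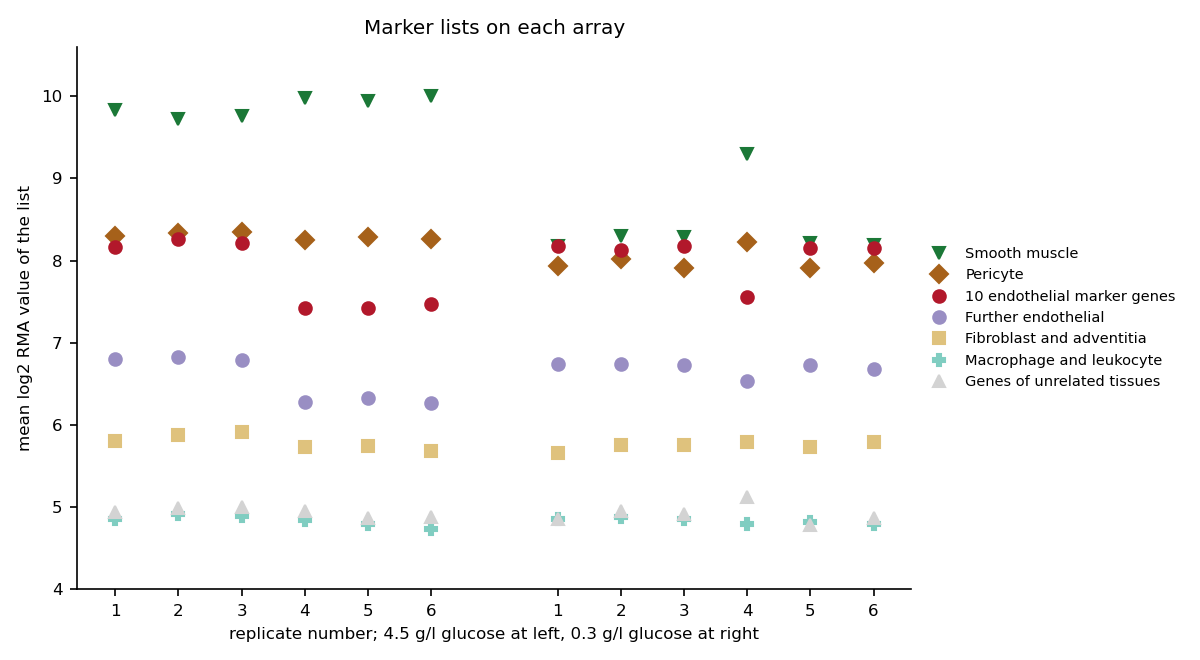
Mean log2 RMA value of 7 marker lists (vertical axis) on each array, by replicate number, with 4.5 g/l at left and 0.3 g/l at right. The 10 endothelial marker genes lie at 7.42 to 7.47 for 4.5 g/l replicates 4 to 6 and at 7.56 for 0.3 g/l replicate 4, against 8.13 to 8.26 on the other 8 arrays. The mean of the smooth muscle genes is higher on those 4 low arrays than on the others of the same glucose level.

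The genes nearest in course to the 10 were sought over all arrays. Likeness was measured as the root mean square difference (RMS) between log2 values centred on each gene's mean, over 12 arrays. The mean course of the 10 genes itself had an RMS of 0.34 around 0. The nearest of 18640 genes searched was Prrx1, a transcription factor of mesenchyme, with an RMS difference of 0.07, followed by Apoe, Cdo1, Tcn2, Mansc1, Mmrn2, Mfap3l and Mgst1 (0.09 to 0.10). Of these 8, Mmrn2 is on the list of further endothelial genes, which holds 53 of the 18640. Prrx1 lay at 8.24 to 8.27 for 4.5 g/l replicates 4 to 6, against 8.80 to 8.97 for replicates 1 to 3. Prrx1 in 0.3 g/l was 8.41 on replicate 4 and 8.84 to 8.93 on the other 5 arrays. Nearest to Pecam1 was the junction adhesion gene Jam2 (0.09), to Flt1 the semaphorin receptor Plxnd1 (0.08), and to Cdh5 the NADPH oxidase Nox4 (0.08). The courses of Pecam1, Flt1 and Cdh5 themselves had an RMS of 0.30, 0.20 and 0.51 around 0. The same distance is thus a larger share of the course of Flt1 than of that of Cdh5. Nox4 had 8.37 to 8.57 in 4.5 g/l replicates 4 to 6, against 9.33 to 9.37 in replicates 1 to 3, and 8.67 in 0.3 g/l replicate 4 against 9.55 to 9.66 in the rest. Erg and Sox17 shared their nearest gene, Itgbl1 (0.09 and 0.11). The nearest genes to Emcn, Tek, Esam, Egfl7 and Tie1 were Stxbp2, Galm, Qpct, Apoe and Il13ra1 (0.08 to 0.14).

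The 10 genes also differed among themselves in their course. The closest pair was Pecam1 and Emcn, with an RMS difference of 0.13, followed by Pecam1 and Egfl7 and by Erg and Sox17 (0.14 each). The farthest was Cdh5 and Flt1 (0.48), then Tie1 and Flt1 (0.47) and Tek and Flt1 (0.45). Tek, Tie1, Esam and Cdh5 are the 4 that were most reduced in 0.3 g/l replicate 4.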

How the data were processed

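Gene expression was measured on an Affymetrix mouse gene array in 12 samples, 6 a group, and the groups follow the sample titles. The authors deposited log2 values per probe set. Per the submitters' processing notes, these come from Expression Console with RMA: background correction, quantile normalization and summary over probes. Such values hide a change in total RNA, and small differences result where genes are dim. There were 41345 probe sets, of which 23521 had 1 symbol in the platform annotation, 1814 several and 16010 none; each of 22180 genes was represented by its probe set of highest mean. No batch, detection call or build is given in the sources used here. Arrays give no read depth, so their number limits the precision; over genes the SE had a median of 0.0931 log2 units.

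Groups were compared over all genes with limma 3.58.1 in R 4.3.3 (lmFit, eBayes; two-sided tests, no replicate block). P-values had Benjamini-Hochberg adjustment over all genes, with a threshold of 0.05. The fit was tested on simulated data. The 10 genes, the marker lists and the alternatives were chosen with earlier results of these data known. Named were all 10 genes; 6 preset further endothelial genes and the 6 passing with the smallest p; 3 smooth muscle genes; of other lists examples among the 3 brightest and up to 2 passing; and the nearest genes by RMS. Alternatives were a mean-variance trend, leaving out the dimmest 25%, 3 scalings, other uses of probe sets, array weights, blocks, replicate ranges, a rank-sum test and leaving out each array. Figures were drawn with matplotlib 3.10.9.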

Additional observations from a re-analysis of the deposited data

Results flagged for a closer look

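In 0.3 g/l, replicate 4 lay far below the other 5 arrays of its group, by the gap between the lowest array and the next relative to the group's range, for 6 of the 10 genes and for their mean. The values were 10.31 for Cdh5, 6.10 for Tie1, 5.01 for Tek, 6.09 for Esam, 7.89 for Erg, 6.20 for Egfl7 and 7.56 for the mean of the 10 genes. The gaps were 0.807, 0.849, 0.767, 0.836, 0.711, 0.742 and 0.932 of the range, all above the critical value for 6 arrays. Of 22 group values examined, 7 stood out in this way, and chance alone gives about 1 in 20. They are not independent, since all 7 come from 1 array. On this array Myh11 was also higher than on the other 5, at 8.80 against 7.03 to 7.25. By the same rule this array stood out low in 6.92% of all genes. No value stood out in 4.5 g/l, where the arrays lay in 2 sets of 3.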

How the results depend on the processing

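Changing the scaling, the error model, the filter on dim genes or the use of probe sets left the count of the 10 genes at 1 lower and 0 higher, and Emcn was that gene. Array weights gave 3 lower (24.4% of all genes passed in either direction), the 2 number ranges as a block 2, and the rank-sum test 0. Replicates 1 to 3 alone gave 2 higher (5.92% of all genes) and 1 lower (7.16%). Replicates 4 to 6 alone gave 0 lower (0.0406% of all genes), and without 0.3 g/l replicate 4 they gave 8 lower (8.94%). Leaving out single arrays gave 0 to 3 lower and 0 higher, with 3 (Emcn, Cdh5 and Tek) without 0.3 g/l replicate 4 and 0 without any one of 4.5 g/l replicates 4 to 6 or 0.3 g/l replicates 1, 3 and 5. With the replicate number as a replicate block, 3 of the 10 were lower, and 7.71% of all genes. Same-numbered samples did not deviate together in every pair (correlations of -0.046 to 0.173 over genes, 2 of 6 highest with their own number), so the numbers were not taken as pairs.

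The mean difference of the 10 genes was -0.23, and -0.33 to -0.15 with single arrays left out. Signs turned for genes that had not passed. Within replicates 1 to 3, Pecam1 was 0.0938, Tie1 0.155, Esam 0.0073 and Egfl7 0.0314. Within replicates 4 to 6, Erg was -0.35, Sox17 -0.29 and Flt1 -0.14, and without 0.3 g/l replicate 4 they were -0.45, -0.42 and -0.0835. Erg turned to -0.067, -0.057 and -0.058 without 4.5 g/l replicates 1, 2 or 3 and to -0.029 without 0.3 g/l replicate 4, and Sox17 to -0.0073 and -0.0105 without 4.5 g/l replicates 2 or 3. The highest values with an array left out were 0.1383 for Erg and 0.1805 for Sox17. The cause was not tested.

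Further endothelial genes, 1 higher and 7 lower with 12 arrays, counted 2 higher with the trend and 2 with the dim filter, 3 with array weights, 8 in replicates 1 to 3, 0 in replicates 4 to 6 and 2 there without 0.3 g/l replicate 4. Of all genes, 1732 of 22180 were higher with the trend, 1771 of 16635 with the dim filter and 2347 of 22180 with array weights. The share higher was 5.92% in replicates 1 to 3, 0.0947% in replicates 4 to 6 and 6.55% there without 0.3 g/l replicate 4. Further endothelial genes lower were 11 with the ranges as a block (9.58% of all genes) and 1 in replicates 4 to 6 (0.0406%). Replicates 4 to 6 without 0.3 g/l replicate 4 gave 24 lower (8.94%) and the rank-sum test 4 (4.35%). Single arrays left out gave 1 to 3 higher and 5 to 10 lower, with 3 higher without 0.3 g/l replicate 4. Over all genes, 1555 rose and 1889 fell with 12 arrays. These counts were 2347 and 3072 with array weights, 21 and 9 in replicates 4 to 6, 1028 and 965 by rank-sum test, and 1202 to 2288 and 1303 to 3007 with single arrays left out, the highest without 0.3 g/l replicate 4. Tek, at a mean of 5.69, is the dimmest of the 10, and RMA compresses differences at such levels.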
